A study of Mus musculus with 34 samples.

Results

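The receptor for leukemia inhibitory factor (LIF), the JAK kinases, Stat3 and 4 of its direct targets were examined in J1 mouse embryonic stem cells (mESCs) cultured without LIF, with or without Royalactin. The 10 genes were chosen by name as the chain from the receptor to the nucleus (Lifr, Il6st, Osmr, Jak1, Jak2, Stat3, Socs3, Bcl3, Pim1 and Pim3), and all 10 were found among the 23366 rows of the deposited table of gene expression. The comparison was between 2 RNA-seq libraries from serum/-LIF cells and 2 from serum/-LIF + Royalactin cells, the latter with 0.5 mg/ml of purified Royalactin, the main protein of honey bee royal jelly. Both groups were the same unmodified cell line, J1, at labelled passage 40 on gelatin in serum medium, and neither received LIF. The study's text gives an earlier passage for its RNA-seq than the labels do. A single cell line was used, and the labels speak of triplicate wells without saying which culture each library came from, so p-values measure the spread between these libraries, which may be partly technical. Serum/+LIF libraries and the ATAC-seq samples were not analysed here.

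LIF binds a receptor made of the Lifr chain and the shared signal-transducing chain gp130, the product of Il6st. JAK kinases bound to the receptor tails phosphorylate the transcription factor Stat3, which enters the nucleus and switches on target genes, among them its own inhibitor Socs3. In mESCs grown in serum this branch sustains self-renewal, and without LIF the cells usually differentiate. The same gp130 chain serves other cytokines of the interleukin-6 family, some of them through other partner chains.

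Stat3 binds DNA at a short palindrome, spelled TTCNNNGAA, which reads alike on both strands. These letters were searched within 1000 bases on either side of the start of the longest coding transcript of each gene (GENCODE, mm9), because the results turn on how the targets differ from each other. They were present in the windows of 4 of the 10 genes, against 45.1% of the windows of 22372 coding genes. Socs3 held a pair, Jak2 a pair, and Osmr and Jak1 a single match each. The windows of Lifr, Il6st, Stat3, Bcl3, Pim1 and Pim3 did not hold these letters, which says nothing of sites farther away. The matches are printed in the direction of transcription with the palindrome in capitals and positions counted in bases from the transcript start, negative before it.
Socs3, chr11:117830543-117830571 (minus strand), at -57 from the start: ggccgggcagTTCCAGGAAtcggggggcg
Socs3, chr11:117830816-117830844 (minus strand), at -330 from the start: gaaaccagccTTCTTAGAAgggagggggg
Jak2, chr19:29325619-29325647 (plus strand), at -685 from the start: aagcggtcccTTCGCAGAAgtggtggtta
Jak2, chr19:29327298-29327326 (plus strand), at +994 from the start: agtcttaattTTCAAGGAAttgaaataac
Osmr, chr15:6825295-6825323 (minus strand), at -996 from the start: taaaagatccTTCCCTGAAttgtcattag
Jak1, chr4:100937194-100937222 (minus strand), at +679 from the start: agggacccgaTTCATCGAAactgggacca

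RefSeq promoter windows of 300 bases (GRCm38.p6, 250 before to 50 after the start) were found for all 10 genes, 12 windows in all. Of these 1 held the palindrome, that of Socs3, against 8.30% of 32851 windows of all genes. It is shown with the palindrome in capitals beside the window of Bcl3, the other target with higher counts under Royalactin, which holds none.
Socs3, chr11:117969317-117969616 (minus strand): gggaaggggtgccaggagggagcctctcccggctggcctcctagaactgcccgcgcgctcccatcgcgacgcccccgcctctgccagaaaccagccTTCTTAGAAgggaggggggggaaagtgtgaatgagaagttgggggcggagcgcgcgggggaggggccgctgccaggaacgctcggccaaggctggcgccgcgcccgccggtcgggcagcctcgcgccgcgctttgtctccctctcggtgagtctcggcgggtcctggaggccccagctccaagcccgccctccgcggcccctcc
Bcl3, chr7:19822706-19823005 (minus strand): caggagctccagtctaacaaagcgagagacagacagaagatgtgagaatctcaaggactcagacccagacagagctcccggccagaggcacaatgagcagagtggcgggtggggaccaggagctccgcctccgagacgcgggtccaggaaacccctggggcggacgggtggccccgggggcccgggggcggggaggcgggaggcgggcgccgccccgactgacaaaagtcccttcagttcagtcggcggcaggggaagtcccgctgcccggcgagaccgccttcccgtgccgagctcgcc

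Values are normalized counts, that is reads divided by a size factor for each library. Between 14737796 and 17597818 reads fell on genes per library, and the ribosomal RNA precursor Rn45s took 9.08% to 46.6% of them, most in replicate 1 of each condition. Differences were tested as log2(normalized count + 1) with limma and adjusted by Benjamini-Hochberg, over the 12993 genes whose normalized counts averaged 10 or more. Of these genes, 0.493% had an adjusted p under 0.05 (0.331% higher and 0.162% lower with Royalactin). The looser rule of the study, an unadjusted p under 0.05 with at least a 2-fold change, selected 7.13%, of which 3.52% of tested genes were higher and 3.61% lower. An exact permutation test of 2 libraries against 2 cannot give a two-sided p below 0.333, so none was run for single genes.

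Markers of undifferentiated mESCs were abundant in every library. The summed normalized counts of 9 of them were 26131 and 31690 in serum/-LIF and 34935 and 42346 with Royalactin. In this sum, Dppa5a, Nanog, Tdgf1 and Pou5f1 are named for sequence shared with other places. Of their 75-base exon stretches, 77.5%, 48.5%, 38.6% and 19.6% matched elsewhere in the genome, so their counts and the sum are uncertain. Estimates were above 0 for 8 of the 9 markers, against 49.4% of all tested genes. The conditions overlapped for 2 of the 9 and did not for 7, against 38.6% of all tested genes without overlap. Tdgf1, named after its values were seen, was lower, at 10914 and 14553 against 8696 and 9728 (log2 fold change -0.45, limma adjusted p = 0.730). Of the 9 markers, 3 passed the adjusted test, all higher with Royalactin, against 0.331% of all tested genes in that direction. Sox2, Zfp42 and Esrrb rose by 1.52, 2.30 and 2.87 on the log2 scale (limma adjusted p = 0.0368, 0.00371 and 0.00273). In fits on 3 libraries Zfp42 and Esrrb passed only without serum/-LIF replicate 2 and Sox2 in none, and 56.6% of the exon tiles of Zfp42 (stretches of 75 bases) matched elsewhere in the genome. The 12 fibroblast markers summed to 512 and 574 in serum/-LIF and to 339 and 199 with Royalactin. Postn, Pdgfrb and Prrx1 were at 0 in every library, and Dcn, a matrix proteoglycan, had 37.4 and 31.1 normalized counts in serum/-LIF and 0 in both Royalactin libraries. Twist1, a mesenchymal transcription factor, had 104 and 189 against 64.4 and 32.4, and of 5 fibroblast markers tested 3 met the looser rule, all lower (3.61% of all tested genes), and none the adjusted one. Dcn, among the 3, passed the filter on low counts only through its serum/-LIF libraries. Without serum/-LIF replicate 2 or without serum/-LIF + Royalactin replicate 2 the number was 1. The 12 primitive and visceral endoderm markers summed to 5462 and 3146 against 4112 and 3586, which overlap, and all of them had reads in at least 1 library. Of the 7 endoderm markers tested, 4 had estimates above 0 and 3 below, and none met the looser rule. Gata4, a transcription factor of primitive endoderm, had 28.1 and 8.28 normalized counts against 49.3 and 44.7. Sox7, another, had 0 and 41.4 against 26.2 and 8.26, which overlap. Col4a1, a basement membrane collagen named after its values were seen, had a log2 fold change of -0.78 and was the only one with an unadjusted limma p under 0.05 (limma adjusted p = 0.506, unadjusted p = 0.0403). Because these were bulk cultures, fewer cells of a type and less RNA per cell cannot be told apart. The summed mESC and fibroblast markers thus differed in the same contrast as the genes described next, and their part in those results was not tested.

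Among the receptor chains, Lifr rose with Royalactin while gp130 was higher by less and Osmr had no reads. Lifr, the chain that pairs with gp130 to bind LIF, lies on chromosome 15, 7079559 to 7147489 of mm9. It had 309 and 252 normalized counts in the serum/-LIF libraries and 1505 and 1312 in the serum/-LIF + Royalactin libraries. Both Royalactin libraries lay well above both serum/-LIF libraries, the nearest pair being 4.25-fold apart. The means were 280 ± 40.6 and 1408 ± 136 (SD, n = 2). Lifr rose by 2.33 on the log2 scale (standard error 0.32), and the adjusted p was 0.0046 (limma, Benjamini-Hochberg). This placed Lifr at rank 15 of the 12993 tested genes by p-value. In fits on 3 libraries the fold change stayed between 2.18 and 2.48 on the log2 scale, but only 1 of the 4 fits kept the call. The limma adjusted p ranged from 0.0182 without serum/-LIF replicate 2 to 0.662 without serum/-LIF + Royalactin replicate 2, with 0.179 without serum/-LIF replicate 1 and 0.343 without serum/-LIF + Royalactin replicate 1.

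Il6st, which encodes gp130 (chromosome 13, 113265216 to 113297068), had 535 and 612 normalized counts in serum/-LIF and 1113 and 827 with Royalactin. The groups did not overlap, but the higher serum/-LIF library and the lower Royalactin library were only 1.35-fold apart. The log2 fold change of 0.75 (standard error 0.32, 95% interval 0.05 to 1.44) had an unadjusted limma p of 0.0365 and did not pass after adjustment (adjusted p = 0.486). The ratio of Il6st to Lifr per kilobase of exon was 3.44 and 4.82 in the serum/-LIF libraries and 1.47 and 1.25 in the Royalactin libraries.

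Osmr, the partner chain of gp130 for oncostatin M (chromosome 15, 6763577 to 6824313), had 0 reads in all 4 libraries, out of 64211514 reads in all. A count of 0 allows up to 3 reads per library, equal to between 2.07 and 4.01 normalized counts, and this limit covers counting error only. Osmr and Lifr are neighbours on chromosome 15, 255 kb apart with no annotated gene between them, and the sequence of Osmr exons was unique in the genome (0% of 75-base exon tiles matched elsewhere with up to 2 mismatches). The receptor chains thus ranged from 0 reads to the gene with the lowest p-value of the 10.

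**Figure D1:**
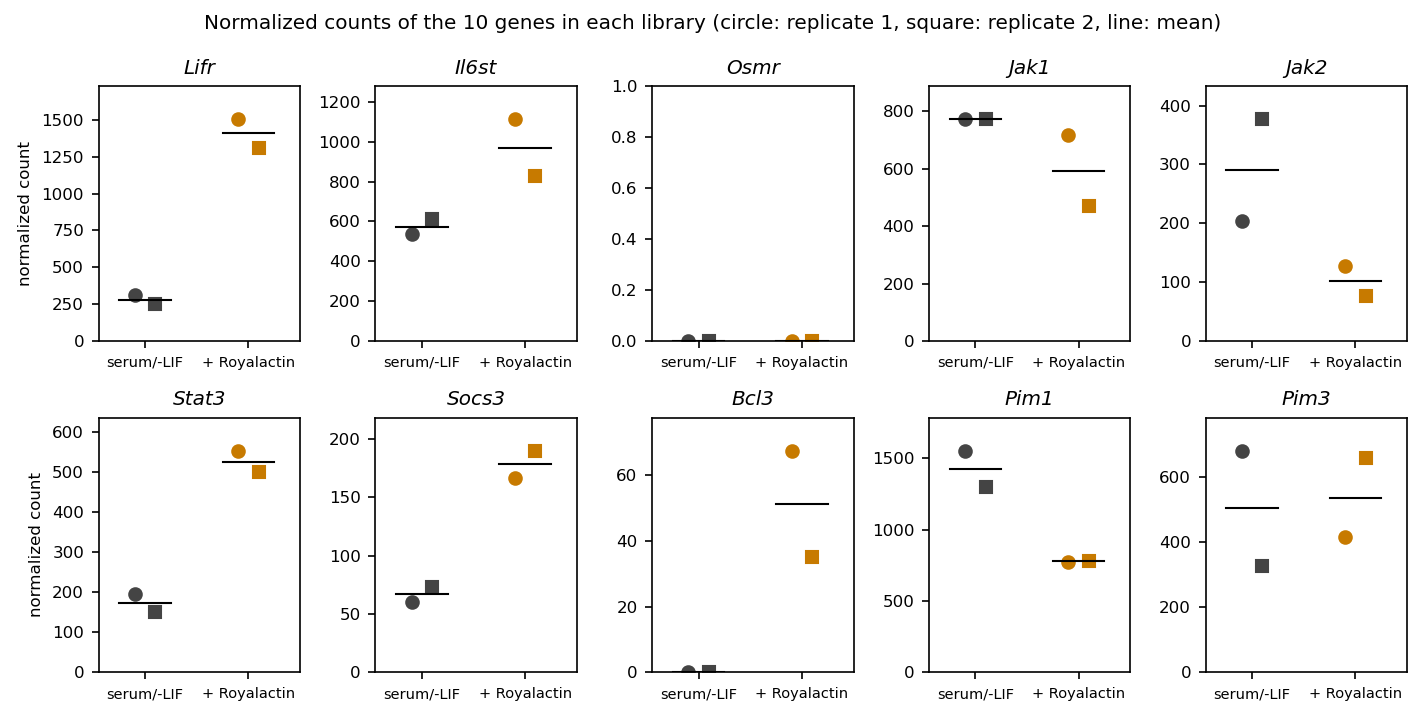
Normalized counts (vertical axes, linear, starting at 0) of the 10 genes in serum/-LIF (grey) and serum/-LIF + Royalactin (orange) libraries, with replicate 1 as a circle, replicate 2 as a square and the group mean as a line. Lifr, Il6st, Stat3, Socs3 and Bcl3 stand higher in both Royalactin libraries, Jak1, Jak2 and Pim1 lower, Pim3 overlaps and Osmr is at 0. The nearest libraries of the conditions are only 1.35-fold apart for Il6st and 1.08-fold for Jak1.

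Jak1 and Jak2 were both lower on average with Royalactin, and neither passed the adjusted limma test. Jak1, the kinase on which gp130 signalling chiefly depends (chromosome 4, 100824972 to 100937887), had 773 and 772 normalized counts in serum/-LIF and 718 and 470 with Royalactin. The serum/-LIF libraries were nearly equal and the Royalactin libraries spread below them, the nearer one by a factor of 1.08. The log2 fold change was -0.41 with a 95% interval of -1.13 to 0.31, and it was not past the threshold (limma adjusted p = 0.764). A change of up to about 2-fold lower is within this interval.

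Jak2, a second kinase of the same receptors and of many others (chromosome 19, 29326318 to 29387570), had 203 and 377 normalized counts in serum/-LIF and 128 and 76.4 with Royalactin. Every serum/-LIF library was above every Royalactin library, by at least 1.59-fold, although the serum/-LIF replicates differed more from each other than that. Jak2 had a log2 fold change of -1.48 (standard error 0.50), with an unadjusted limma p of 0.0108 and an adjusted p of 0.323. Jak2 was selected by the looser rule. It lost that selection when replicate 2 of serum/-LIF was left out (limma, unadjusted p = 0.0828) and when replicate 2 of serum/-LIF + Royalactin was (unadjusted p = 0.119). The ratio of Jak1 to Jak2 per kilobase was 2.65 and 1.43 in serum/-LIF and 3.91 and 4.28 with Royalactin.

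Stat3, the transcription factor of the branch (chromosome 11, 100746412 to 100800854), had 195 and 150 normalized counts in serum/-LIF and 554 and 500 with Royalactin. The groups were separated by a factor of 2.56 at their nearest, larger than the spread within either. The log2 fold change of 1.62 (95% interval 0.79 to 2.44) had an unadjusted limma p of 0.000895, rank 107 of the tested genes, and an adjusted p of 0.107. It met the looser rule with all 4 libraries and in every fit on 3 of them, where it ranged from 1.43 to 1.80 on the log2 scale. Stat3 shares 72 exon bases, 0.756% of its exon length, with Stat5a on the opposite strand, and Stat5a had between 9.05 and 33.0 normalized counts.

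The 4 direct targets of Stat3 lay in different directions, and none passed the adjusted limma test. Socs3, the feedback inhibitor that binds gp130 and the JAK kinases (chromosome 11, 117827393 to 117831361), had 60.2 and 73.5 normalized counts in serum/-LIF and 167 and 190 with Royalactin. These values correspond to 45 and 71 reads against 166 and 276 reads, and the exact 95% Poisson intervals of the reads, 32.8 to 60.2 and 55.5 to 89.6 against 142 to 193 and 244 to 311, cover counting error only. The conditions did not overlap and were 2.27-fold apart at their nearest. Socs3 had a log2 fold change of 1.41 (standard error 0.52), with an unadjusted limma p of 0.0181 and an adjusted p of 0.389, so Socs3 met only the looser rule. It lost that selection when either Royalactin library was left out (limma, unadjusted p = 0.0789 without replicate 1 and 0.124 without replicate 2). Relative to Stat3 itself, Socs3 was at 1.02 and 1.61 per kilobase in serum/-LIF and 0.993 and 1.25 with Royalactin, which overlap. Socs3 is the target whose windows hold the palindromes printed above, but the window of Jak2, which was lower with Royalactin, also holds a pair. The palindrome was in the windows of 4 of the 10 genes and in 1 of 12 promoter windows. These shares are near those of all genes, 45.1% and 8.30%, and a link between palindrome and expression was not tested.

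Bcl3, a nuclear protein of the IκB family that acts with NF-κB p50 and p52 (chromosome 7, 20393811 to 20408119), had 0 reads in both serum/-LIF libraries. With Royalactin it had 67 and 51 reads, or 67.4 and 35.1 normalized counts. Against a floor of 3 reads in serum/-LIF replicate 1, or 4.01 normalized counts, the mean with Royalactin was 12.8-fold higher. The lower Royalactin library was 8.75-fold above this floor. Neither ratio is a lower bound, since the exact Poisson interval of 0 reads in serum/-LIF replicate 1 reached 4.93 normalized counts. The fit gave an unadjusted limma p of 0.00923 and an adjusted p of 0.303. Bcl3 met the looser rule. It did not meet it when either Royalactin library was left out (limma, unadjusted p = 0.262 without replicate 1 and 0.0976 without replicate 2). It passed the filter on low counts only through its Royalactin libraries, and at a minimum mean of 50 it was not tested. An antisense gene, Gm16175, covers 161 bases (6.48%) of its exons, and no source used here says if reads were counted by strand.

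Pim1, a serine/threonine kinase that promotes survival and growth and a well-known Stat3 target (chromosome 17, 29627757 to 29632390), had 1553 and 1298 normalized counts in serum/-LIF and 777 and 783 with Royalactin. The direction was opposite to that of Socs3 and Bcl3, with both Royalactin libraries lower by at least 1.66-fold and nearly equal to each other. The log2 fold change of -0.86 (95% interval -1.51 to -0.22) had an unadjusted limma p of 0.0123 and an adjusted p of 0.341, and its size was under the 2-fold limit. In fits on 3 libraries it stayed between -0.99 and -0.73. The counts of Pim1 are uncertain, because 19.0% of its 75-base exon tiles also matched elsewhere with up to 2 mismatches, and 30 tiles matched a stretch without an annotated gene on chromosome 6, 29247791 to 29248269, and because the antisense gene Gm16912 covers 23.7% of its exon bases.

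Pim3, a close relative of Pim1 (chromosome 15, 88692616 to 88696150), had 681 and 327 normalized counts in serum/-LIF and 414 and 658 with Royalactin. The groups overlapped, since replicate 1 was the higher library in serum/-LIF and the lower one with Royalactin. The log2 fold change of 0.15 had a 95% interval of -0.73 to 1.03 (limma adjusted p = 0.944), so a 2-fold change in the direction of a rise was within the interval. Its sign changed with the library left out, from -0.38 without serum/-LIF replicate 2 to 0.67 without serum/-LIF replicate 1.

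**Figure D2:**
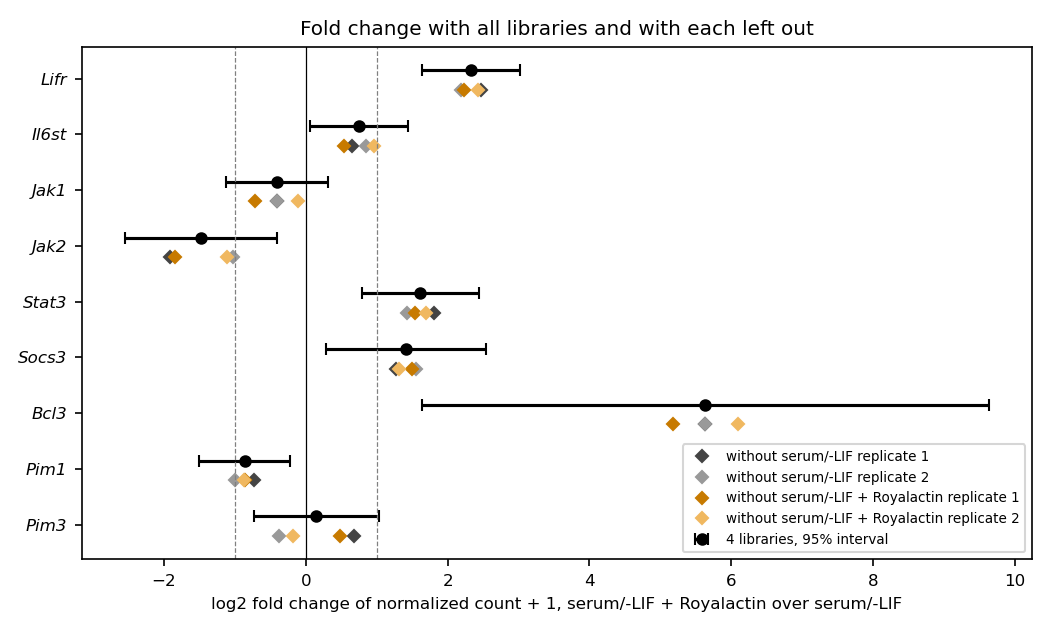
Log2 fold change of normalized count + 1, serum/-LIF + Royalactin over serum/-LIF, for the 9 tested genes, with the estimate from 4 libraries and its 95% limma interval (black) and the estimate with each library left out (diamonds). Dashed lines mark 2-fold. Lifr lies between 2.18 and 2.48 with each library left out, and Pim3 falls on either side of 0; the value of Bcl3 rests on 0 reads in serum/-LIF and is no measure of its size.

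Of the 10 genes, 9 passed the filter on low counts and Osmr did not. Of the 9, 7 had an unadjusted limma p under 0.05, against 9.34% of all tested genes. Lifr alone had an adjusted p under 0.05, and 5 met the looser rule, 4 higher (Lifr, Stat3, Socs3 and Bcl3) and 1 lower (Jak2), where 3.52% and 3.61% of all tested genes met it in those directions. Without serum/-LIF + Royalactin replicate 1 the number was 3, and without replicate 2 it was 2, Lifr and Stat3. The conditions did not overlap for 8 of the 9, against 38.6% of tested genes, with the Royalactin pair the higher for 5 (19.7% of tested genes) and the lower for 3 (18.9%). With libraries scaled to their totals without Rn45s, the number without overlap was 7. The median log2 fold change of the 9 was 0.75, beside -0.01 for all tested genes. Genes of 1 pathway are not independent of each other, and Bcl3 entered only through its higher group.

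Levels of different genes can be set side by side only per length. Length here was that of all annotated exons of a gene merged (GENCODE, mm9). The annotation behind the counts is not given, so the order of genes and the size of per-kilobase ratios may depend on this choice. The counts of Pim1 are uncertain for the reasons given above. Per kilobase of exon, Pim1 was the most abundant of the 10 in both conditions, at 723 ± 91.3 normalized counts in serum/-LIF and 395 ± 2.2 with Royalactin (SD, n = 2). In serum/-LIF it was followed by Pim3 (208 ± 103), Il6st (110 ± 10.4), Jak1 (107 ± 0.0808), Jak2 (57.7 ± 24.4), Lifr (27.1 ± 3.93), Socs3 (23.1 ± 3.26) and Stat3 (18.1 ± 3.35). Il6st and Jak1 overlapped, as did Lifr and Socs3, and Socs3 and Stat3 came within their spread of each other. With Royalactin the order was Pim1, Pim3 (221 ± 71.2), Il6st (186 ± 38.8), Lifr (136 ± 13.2), Jak1 (82.2 ± 24.3), Socs3 (61.7 ± 5.63), Stat3 (55.4 ± 3.99), Bcl3 (20.6 ± 9.19) and Jak2 (20.3 ± 7.22). Lifr thus stood below both kinases per kilobase in serum/-LIF and above both with Royalactin, in every library of each condition. Pim3 and Il6st overlapped with Royalactin, as did Jak1 with Socs3, Socs3 with Stat3 and Bcl3 with Jak2.

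Ratios within a library do not depend on the size factors. For pairs of genes chosen after their values were seen, Pim1 per kilobase was 38.4 and 41.8 times Stat3 in serum/-LIF and 6.77 and 7.56 times with Royalactin. Against Socs3 it was 37.8 and 25.9 times, and then 6.82 and 6.04 times. The ratios of Pim1 to either gene did not overlap between conditions, whereas that of Socs3 to Stat3 did. Lifr per kilobase was 1.46 and 1.55 times Stat3 in serum/-LIF and 2.50 and 2.42 times with Royalactin.

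**Figure D3:**
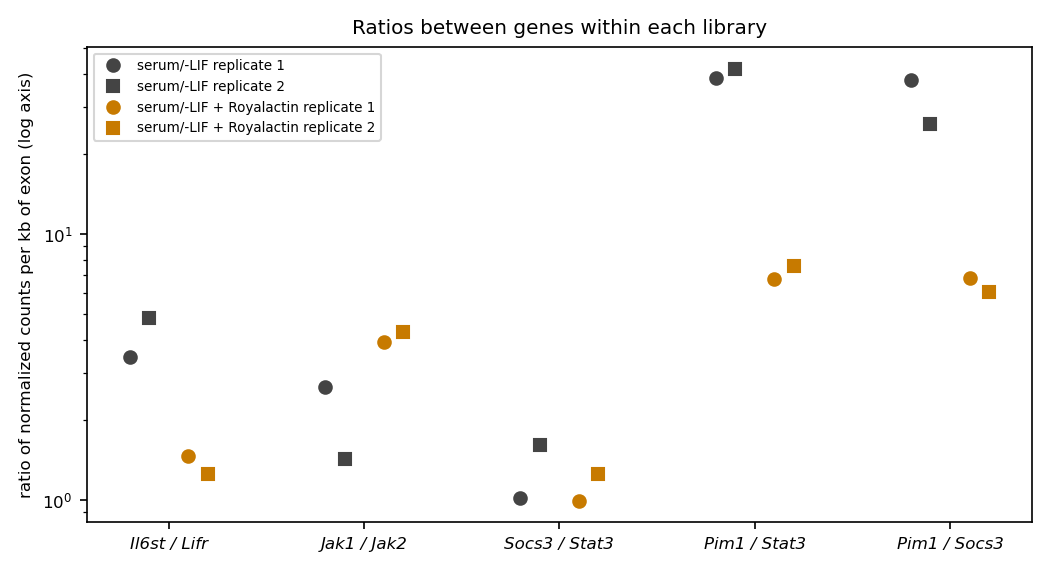
Ratios of normalized counts per kilobase of exon between pairs of genes within each library, on a log axis, for serum/-LIF (grey) and serum/-LIF + Royalactin (orange), with replicate 1 as a circle and replicate 2 as a square. Il6st to Lifr and Pim1 to Stat3 or Socs3 are lower and Jak1 to Jak2 is higher in both Royalactin libraries, and Socs3 to Stat3 overlaps.

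A further 76 genes of the pathway were listed in 9 groups by role, and 61 had enough counts to be tested. Of these, 2 passed the adjusted test, both higher with Royalactin, against 0.331% of all tested genes in that direction. The looser rule was met by 11, 9 higher and 2 lower. The number meeting the looser rule was 4 without serum/-LIF + Royalactin replicate 1, 7 without its replicate 2, 10 without serum/-LIF replicate 1 and 14 without serum/-LIF replicate 2. The looser rule was met by 7.13% of all tested genes, and the median log2 fold change of the 61 was 0.09. The lists are described in the order ligands, receptors, kinases, STAT factors, inhibitors, adaptors and targets.

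Cells of both conditions held transcripts of gp130 cytokines at low levels. Lif itself had 134 and 42.4 normalized counts in serum/-LIF and 28.2 and 37.9 with Royalactin, the nearest libraries being 1.12-fold apart (log2 fold change -1.18, limma adjusted p = 0.696). Ctf2, Il6, Il27 and Ebi3 had 0 reads in every library, and the remaining 4 of the 12 listed ligands had too few counts to test. Among the other receptor chains 3 of 5 were tested and none had an unadjusted limma p under 0.05. Il6ra, the interleukin-6 receptor, had 20.1 and 0 against 26.2 and 3.44 normalized counts, and Cntfr had 100.3 and 64.2 against 66.4 and 50.2.

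The other JAK kinases had estimates above 0, and neither passed the adjusted test. Tyk2 had 92.3 and 109 normalized counts in serum/-LIF and 301 and 213 with Royalactin, which did not overlap. It met the looser rule with a log2 fold change of 1.33 (limma, unadjusted p = 0.0131, adjusted p = 0.349), and lost it without serum/-LIF + Royalactin replicate 1 (unadjusted p = 0.150). Jak3, a kinase of lymphoid cytokine receptors, had 26.7 and 8.28 against 67.4 and 23.4, which overlap. Of the 6 other STAT genes, the Royalactin pair was the higher without overlap for 4, against 19.7% of all tested genes, and the lower for none, against 18.9%. Stat4 had 96.3 and 88.0 against 204 and 120 (adjusted p = 0.714).

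None of the 13 tested inhibitors other than Socs3 passed the adjusted limma test. An unadjusted limma p under 0.05 was found for 2, against 9.34% of all tested genes. These were Pias3, a SUMO ligase named as an inhibitor of activated Stat3, with 135 and 50.7 against 250 and 226 normalized counts (log2 fold change 1.51, adjusted p = 0.375), and Pias2, singled out after its values were seen, with a log2 fold change of 1.02 (adjusted p = 0.195). Both met the looser rule, which Pias3 kept only in the fit without serum/-LIF replicate 1, and which Pias2 lost without replicate 1 of either condition. Socs1, a relative of Socs3, lay in the other direction, at 32.1 and 38.3 against 6.04 and 14.5 (log2 fold change -1.79, adjusted p = 0.680). Among the 5 adaptors that link gp130 to the ERK and PI3K branches, Gab1 had a log2 fold change of 0.79 and Shc1 one of -0.72 (limma adjusted p = 0.429 and 0.512), and none met the looser rule. Of the exon tiles of Shc1, 33.6% matched elsewhere in the genome.

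Other Stat3 targets described in mESCs differed among themselves. Of 8 listed, Pramel7 had 0 reads. Estimates were above 0 for 5 of the 7 tested, against 49.4% of all tested genes. The adjusted limma test was passed by 2 of the 7, the pluripotency factors Klf4 and Tfcp2l1. Both were higher with Royalactin, as were 0.331% of all tested genes by that test. Klf4 had 30.8 and 18.6 normalized counts in serum/-LIF and 485 and 277 with Royalactin (log2 fold change 3.88, limma adjusted p = 0.00787), with 26.8% of its exon tiles matching elsewhere. Tfcp2l1 had 185 and 143 against 1560 and 1262 (log2 fold change 3.10, limma adjusted p = 0.00273). Of the fits on 3 libraries, both calls held only without serum/-LIF replicate 2 (limma adjusted p = 0.0182 for Klf4 and 0.00871 for Tfcp2l1). In the other 3 such fits the adjusted p was 0.165 or more, while the log2 fold changes over all 4 ranged from 3.48 to 4.28 for Klf4 and from 2.92 to 3.29 for Tfcp2l1. Gbx2 and Klf5, named after their values were seen, met the looser rule with log2 fold changes of 2.18 and 1.47. Gbx2 lost that selection without serum/-LIF + Royalactin replicate 1, and Klf5 without that library or without serum/-LIF replicate 1. The remaining 3, Myc, Junb and Sbno2, did not, with log2 fold changes of -0.90, -0.40 and 0.09. These results were known from earlier work on the same libraries and are not independent of it.

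Stat3 targets described in other tissues mostly had estimated log2 fold changes near 0. The 95% limma intervals of Fos (-1.80 to 1.96), Cebpd (-1.66 to 1.63), Cebpb, Icam1 and Timp1 included a 2-fold change in either direction. A change of that size was thus not excluded for these genes. The intervals of Mcl1, Ccnd1, Hif1a and Birc5 did not reach 2-fold in either direction. Of 14 targets listed, 11 were tested and none passed the adjusted limma test. An unadjusted limma p under 0.05 was found for 1, against 9.34% of all tested genes. That was Vegfa, the endothelial growth factor, with 275 and 240 normalized counts in serum/-LIF and 121 and 119 with Royalactin. It met the looser rule (limma log2 fold change -1.09, unadjusted p = 0.0268, adjusted p = 0.437). Of the 4 fits on 3 libraries, 1 kept that selection, the fit without serum/-LIF replicate 2. The next in size, Bcl2l1, had a log2 fold change of -0.31, and the acute-phase genes Lcn2 and Hp had 0 reads. Among 10 relatives and partners of the Pim kinases and Bcl3, none passed the adjusted limma test. Pim2, Nfkb1 and Nfkbia, named after their values were seen, had an unadjusted limma p under 0.05. These were 3 of 10, against 9.34% of all tested genes. Pim2 had 2370 and 1237 normalized counts against 1099 and 818, the same direction as Pim1, with a log2 fold change of -0.85 (adjusted p = 0.455) and 29.3% of its exon tiles shared with other places. Rel had 53.5 and 47.6 against 42.2 and 3.44, and Nfkbie 21.4 and 0 against 24.1 and 7.57, the latter overlapping between conditions. Nfkb1, which encodes the p50 partner of Bcl3, had a log2 fold change of 0.79 (adjusted p = 0.512), and Nfkbia one of 1.12 (adjusted p = 0.380). Nfkbia met the looser rule, and of the fits on 3 libraries kept it only without serum/-LIF replicate 2.

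**Figure D4:**
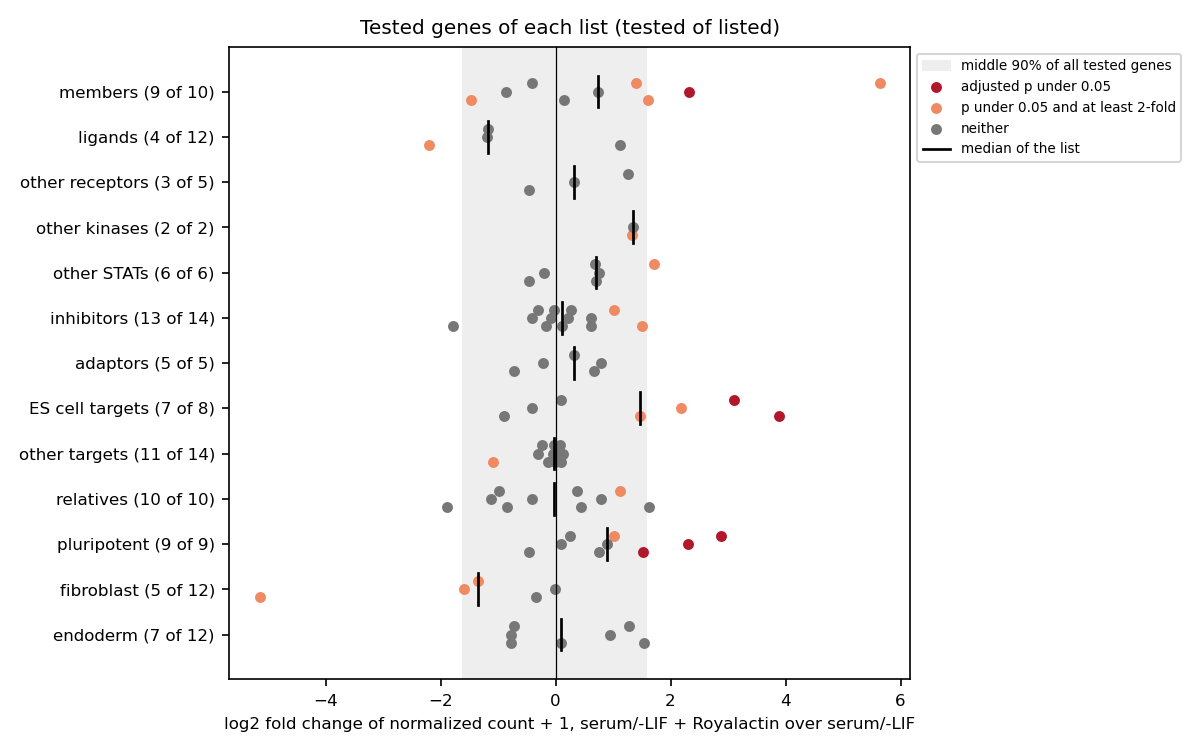
Log2 fold change of normalized count + 1, serum/-LIF + Royalactin over serum/-LIF, for each tested gene of the 10 chosen genes (members) and of the lists of pathway genes and cell markers, with the list's median as a black line and the middle 90% of all tested genes shaded. Red points had a limma adjusted p under 0.05 and orange points met only the looser rule; red points lie in the members, the ES cell targets and the pluripotent markers.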

How the data were processed

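RNA-seq of ribosomal RNA-depleted RNA was used from 4 libraries. Reads had been placed on mm9 by the authors using Tophat and summed over genes using HTSeq-count. The authors then deposited DESeq-normalized counts, a signal proportional to reads. The gene annotation and strand setting are not given in the sources used here. All values of each library were whole multiples of 1 step (tolerance 0.01 of a read), and reads are values divided by this step. Samples were grouped by their labels. After adding a pseudocount of 1 and taking log2, a linear model was fitted in limma 3.58.1 (R 4.3.3; moderated with a mean trend, two-sided, Benjamini-Hochberg) to genes averaging 10 or more, and the steps were tested on simulated data. Genes named are the 10 chosen genes and, from each other list, those past the adjusted test and the 2 largest changes; exceptions are stated, and some of these results are not reported here. The genes, lists and tests were chosen with earlier results of these data known. The alternatives were other pseudocounts (0.1 and 5), filters and scalings, the replicate block, no trend, and each library left out. Gene models are from GENCODE (mm9), promoter windows from RefSeq (GRCm38.p6), and 75-base exon tiles were mapped with minimap2 2.31-r1302.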

Additional observations from a re-analysis of the deposited data

How the results depend on the processing

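Lifr, Il6st, Jak1, Jak2, Stat3, Socs3, Bcl3 and Pim1 kept their direction under all alternatives in which they were tested, and Pim3 did not, with log2 fold changes of -0.38 without serum/-LIF replicate 2 and -0.19 without serum/-LIF + Royalactin replicate 2, and up to 0.67 with another library left out. The number of all genes with a limma adjusted p under 0.05, 64, was 32 with a pseudocount of 0.1, 34 without a filter, 99 at a minimum mean of 50, and 0 without the trend (1135 at an unadjusted p under 0.05), and 0 of the 10 genes passed in that fit (5 unadjusted), nor did Klf4, Tfcp2l1, Sox2, Zfp42 or Esrrb. Fits on 3 libraries gave 0 to 60 such genes, and 0 to 1 among the 10. By the looser rule they gave 519 (without serum/-LIF + Royalactin replicate 1) to 1963 genes (without serum/-LIF replicate 1), and 2 to 5 of the 10. The cause was not tested, though these fits have fewer samples. The main fit did not take the replicate numbers as a pairing. Deviations of same-numbered replicates correlated at 0.0851, but only 2 pairs cannot settle if the numbers mark a pairing. Rn45s took 46.6% and 38.4% of reads in replicate 1 of serum/-LIF and serum/-LIF + Royalactin, and 21.6% and 9.08% in replicate 2. With the replicate block 391 genes passed, 2 of the 10 among them, Lifr and Stat3, and no other call among the 10 changed. Of the 61 other pathway genes 4 passed, against 2 without the block. The quasi-likelihood count test was not run, because the step of serum/-LIF + Royalactin replicate 1, 1.01, failed an automatic check for whole reads. All values of that library were still whole multiples of its step, and the reads given above rest on this. With 2 libraries per condition, fold changes of the size of that of Il6st did not pass the adjusted test.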
